A study of Mus musculus with 2 samples.

Results

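Among the signals of P14 cerebrum RNA from a lag mutant and a wild-type mouse, 8 genes with large differences are described that were grouped as lying outside known glial programs. They were Tmem87a, Tmem267, Taf15, Pdxdc1, Adat2, Serpinb6e, Tmem254a and Ephx1, out of 18194 genes that the array could name. They were selected on the signals of these same arrays, for a large ratio in at least 1 probe set paired with the gene alone and without a stated threshold, so the size of these differences is a description and supports nothing by itself. The array held 12 probe sets that were each paired with a single one of the 8 genes, out of 34958 that were paired with 1 gene and 45101 in all.

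The lag mutant carried a splice site mutation in Kif14, a kinesin gene needed for cytokinesis, and the wild-type mouse did not. Each genotype was 1 array at postnatal day 14. The labels call the first animal only a mutant, give no sex or treatment, and do not say how many mice gave the RNA. The line arose on a mixed background of 129/SVJ, C57BL/6N and DBA/2N, with the mutation on a DBA/2N segment, and was then backcrossed to C57BL/6J. Neither genotype was repeated, so differences cannot be set against the spread of mice or tested.

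The 8 genes belong to unrelated parts of cell biology. Tmem87a encodes a membrane protein of the Golgi, and Tmem267 a predicted membrane protein that is little characterised. Taf15 is an RNA-binding protein that is related to Ewsr1 and associates with the general transcription factor TFIID. Adat2 forms with Adat3 the enzyme that turns adenosine into inosine at the wobble position of transfer RNAs. Pdxdc1 holds a decarboxylase domain that depends on pyridoxal phosphate, the active form of vitamin B6. Serpinb6e is a clade B serpin, a family of protease inhibitors that mostly act inside cells. Tmem254a is a small membrane protein gene, and Ephx1 is the microsomal epoxide hydrolase, which detoxifies reactive epoxides in the endoplasmic reticulum.

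A probe set on this type of array reads only the stretch of a transcript that its short oligonucleotides match, mostly near the 3′ end. Transcripts that end elsewhere, or that differ in bases under the probes, are therefore read unevenly by the probe sets of a gene. Probe sets whose names end in _a_at read several transcripts of 1 gene, and those in _x_at contain oligonucleotides that can also bind similar sequences of other genes. Signals were compared as log2 ratios of lag mutant over wild-type, on the linear intensities that MAS5.0 had scaled. A background level of 49.1 was used on both arrays, taken from genes not transcribed in brain, and a gene was called measured where its probe set exceeded this level on at least 1 array. Signals under the level were raised to it, so that such a fold is a lower bound. A gene took the value of its brightest probe set.

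Most genes differed little. Across 13895 measured genes the median log2 ratio was 0.01, and in the lag mutant 142 genes (1.02%) were lower by 2-fold or more and 104 (0.748%) higher by as much. When both arrays were scaled to the same median signal, 114 were lower and 140 higher. Kif14 itself had a signal of 0.733 in the lag mutant and 6.85 in the wild-type, both under background, so it does not check the labels. The cerebrum label was met by markers of cortical excitatory and general neurons, which were measured on both arrays wherever they had a probe set of their own. Markers of mature oligodendrocytes stood far apart. All 5 measured markers were at least 2-fold lower, with a summed signal of 1969 in the lag mutant and 29970 in the wild-type. Fewer oligodendrocytes and less RNA per cell cannot be told apart in such tissue RNA. The part of this shift in the signals of the 8 genes was not tested.

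By the brightest probe set, in the lag mutant 2 of the 8 genes were lower by 2-fold or more and 5 were higher by as much, while Pdxdc1 was split between its probe sets. All 8 were measured. Of the 12 probe sets, 11 exceeded background on at least 1 array and 10 on both. Past 2-fold, 3 of those 11 were lower and 5 higher, where 1.37% and 0.785% of all 25234 measured probe sets were. Because the rule used these ratios, nothing is read from the comparison.

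**Figure D1:**
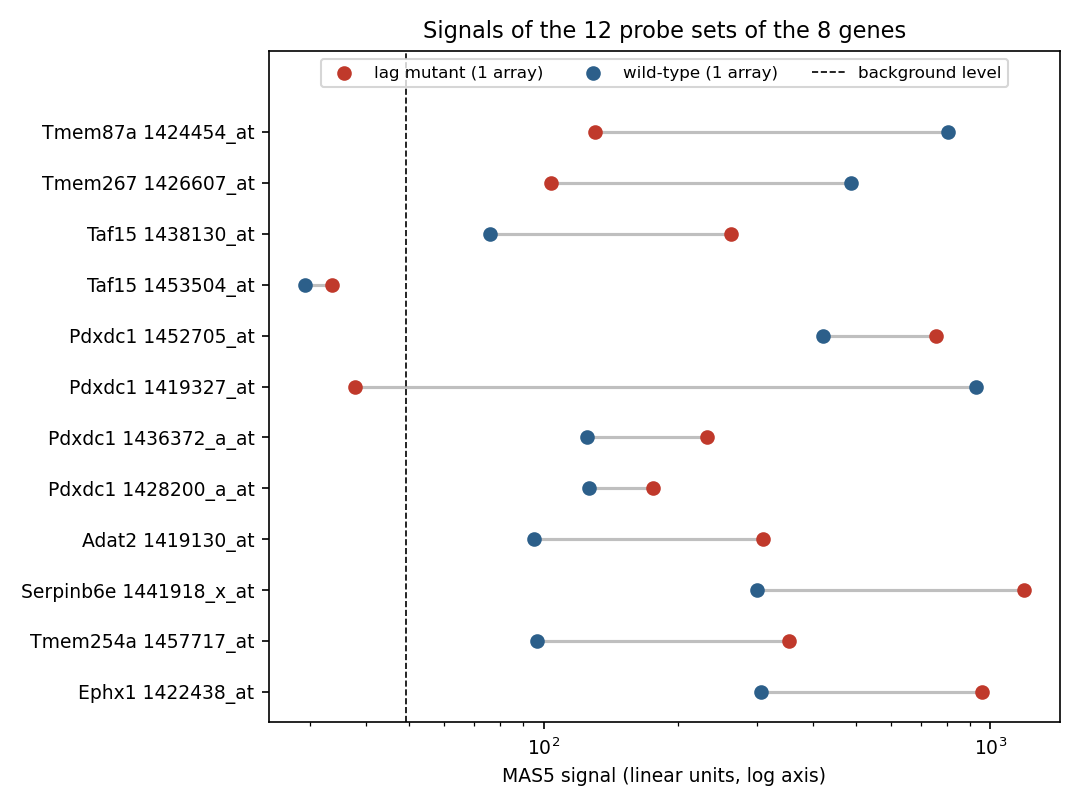
MAS5 signal (horizontal log axis, linear units) of the 12 probe sets paired with 1 of the 8 genes alone, with 1 point for the lag mutant array and 1 for the wild-type array. Tmem87a, Tmem267 and 1 of the 4 Pdxdc1 probe sets lie lower in the lag mutant, the second Taf15 probe set lies under background on both arrays, and the rest lie higher in the lag mutant.

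Tmem87a had the largest difference of the genes that were lower. Its only probe set, 1424454_at, had a signal of 130 in the lag mutant and 802 in the wild-type, 6.16-fold lower, a log2 ratio of -2.62. Both signals were above background, and among the 13008 genes above it on both arrays only 8 had lower ratios. Over all measured genes, by brightest probe sets, the list of the lowest ratios was led by myelin and oligodendrocyte genes such as Mobp, Mbp, Bcas1 and Mag. Mobp was under background in the lag mutant.

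Tmem87a belongs to the GOST proteins, membrane proteins with a luminal Golgi-dynamics domain. Of the 6 other measured genes of this family 0 were changed at least 2-fold, where 1.77% of all measured genes were, so the count is near that share and says nothing particular to the family. Their median log2 ratio was 0.00 (the list with Tmem87a had -0.01, against 0.01 over all measured genes). Tmem87b, the closest relative, had 551 in the lag mutant and 569 in the wild-type. Gpr107, a further Golgi protein, had 515 and 538 in the same order. Wls, the carrier of Wnt proteins, was read unevenly. Its brightest probe set had 809 in the lag mutant and 645 in the wild-type, while another had 423 and 463 and the last 257 and 394, 1.53-fold lower.

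Tmem267 was lower as well. Probe set 1426607_at had 104 in the lag mutant and 488 in the wild-type, 4.69-fold lower, a log2 ratio of -2.23. It too was the only probe set of its gene, so that no second reading of the transcript exists on this array. RefSeq lists 4 transcripts for Tmem267 and 8 for Tmem87a, and which of them each probe set reads was not tested. When the 99th percentile set the background level, 157, the lag mutant signal was under it and the log2 ratio was -1.64, and that of Tmem87a -2.35.

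Serpinb6e had the highest ratio of the 8 genes. Its probe set 1441918_x_at had 1188 in the lag mutant and 301 in the wild-type, 3.95-fold higher, a log2 ratio of 1.98. This is the probe set of the class that can bind similar sequences, and it is the only one for the gene. Of 1530 measured probe sets of this class, 2.94% were changed at least 2-fold, against 2.23% of 18748 ending in plain _at and 1.6% of those ending in _a_at.

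The other clade B serpins on the array were mostly under background. Serpinb6a, a neighbour and close relative, had 1281 in the lag mutant and 1318 in the wild-type by its own probe set. Serpinb6b had 119 and 98.1, and Serpinb9, an inhibitor of granzyme B, 281 and 268, in the same order. Of the 5 other measured members 0 were changed 2-fold, with log2 ratios between -0.17 and 0.28, a count that the 1.77% over all genes would also give, and 12 of the 18 on the array were under background on both arrays, Serpinb6c among them. How much of the signal of 1441918_x_at came from such relatives was not tested.

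Tmem254a was higher in the lag mutant by 2 probe sets, of which only 1 is its own. Probe set 1457717_at, paired with it alone, had 355 in the lag mutant and 96.5 in the wild-type, 3.68-fold higher, a log2 ratio of 1.88. Probe set 1428738_a_at, which the annotation pairs with Tmem254a, Tmem254b and Tmem254c together, had 2192 in the lag mutant and 1034 in the wild-type, 2.12-fold higher, a log2 ratio of 1.08. Both readings pointed the same way, and the shared probe set was above background on both arrays.

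The 3 copies lie on chromosome 14, and the annotation pairs 1428738_a_at with all of them, so its signal cannot be given to 1 copy. Only bases before the start sites were compared between the copies. Their transcripts and the bases under the probes were not, and whether 1457717_at also binds other copies was not tested. In RefSeq on GRCm38.p6, the 250 bases before the first listed start site of each copy shared an unbroken run of 234 identical bases. The last 80 bases of that run are shown here because they are the same, base for base, in all copies. They lie at chr14:25927673-25927752 for Tmem254a, chr14:26067426-26067505 for Tmem254c and chr14:26207042-26207121 for Tmem254b, each on the minus strand, and no base is in capitals.
Tmem254a, Tmem254b and Tmem254c: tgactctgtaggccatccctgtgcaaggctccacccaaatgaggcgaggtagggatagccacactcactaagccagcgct
The run ended at the start site in Tmem254a and Tmem254c and 16 bases before it in Tmem254b. A probe set for 1 copy alone existed only for Tmem254a, so the copies could not be compared with each other. When the 99th percentile set the background level, the log2 ratio of 1457717_at was 1.18.

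Taf15 was read by a pair of probe sets of which only 1 gave a value. Probe set 1438130_at had 263 in the lag mutant and 75.7 in the wild-type, 3.47-fold higher, a log2 ratio of 1.80. Probe set 1453504_at had 33.6 and 29.3 in the same order, both under background, so it neither shares nor opposes the difference. RefSeq lists 9 transcripts for Taf15, the most of the 8 genes. The wild-type signal was close to background, and with the level at the 99th percentile, 157, the log2 ratio was 0.74, under 2-fold.

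Values of genes related to Taf15 by sequence or by TFIID were as follows. Ewsr1, a related RNA-binding protein, had 3354 in the lag mutant and 3826 in the wild-type. Of 15 measured subunits of TFIID 0 were changed 2-fold by their brightest probe sets, near the 1.77% over all genes, and their median log2 ratio was 0.06. The brightest Taf4 probe set had 472 in the lag mutant and 348 in the wild-type, the other one 218 and 249. Taf8 had 117 in the lag mutant and 157 in the wild-type by its brightest and 70.4 and 35.7, under background, by the other. In both genes the direction depended on the probe set.

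Adat2 was 3.25-fold higher. Its probe set 1419130_at had 309 in the lag mutant and 95.2 in the wild-type, a log2 ratio of 1.70, which became 0.98 with the level at the 99th percentile. Adat3, the other subunit of the wobble deaminase, had 183 in the lag mutant and 132 in the wild-type, a log2 ratio of 0.47. Adat1, which acts next to the anticodon, had 54.7 and 67.6 in the same order.

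Of the deaminases that edit adenosines in longer RNAs, Adar and Adarb1 were within 2-fold by their brightest probe sets. Adar had 1099 in the lag mutant and 987 in the wild-type by that probe set and 189 and 149 by another, while 1439276_at had 80.8 and 206, 2.55-fold lower. Adarb2, a brain relative without known editing activity, had 210 in the lag mutant and 445 in the wild-type, 2.11-fold lower, while its second measured probe set was 1.46-fold lower. The 5 other measured genes of this list had a median log2 ratio of -0.04.

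Ephx1 was 3.13-fold higher. Probe set 1422438_at had 959 in the lag mutant and 306 in the wild-type, a log2 ratio of 1.65, and both signals were far above the background level. RefSeq lists 2 transcripts for the gene. Ephx2, the soluble epoxide hydrolase, had 250 in the lag mutant and 333 in the wild-type. Ephx4 had 1065 and 763 in the same order, and Ephx3 was under background on both arrays.

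Other enzymes of detoxification were compared as a list. Of 11 measured xenobiotic and glutathione enzymes 0 were changed 2-fold, near the 1.77% over all genes, and the median log2 ratio was 0.04. Nqo1, a quinone reductase, had 200 in the lag mutant and 179 in the wild-type, and Hmox1, haem oxygenase, 120 and 100.4. Gstm1, a glutathione transferase, had 1417 in the lag mutant and 1068 in the wild-type by its brightest probe set, and its 3 other measured probe sets were 1.49-fold to 1.65-fold higher.

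**Figure D2:**
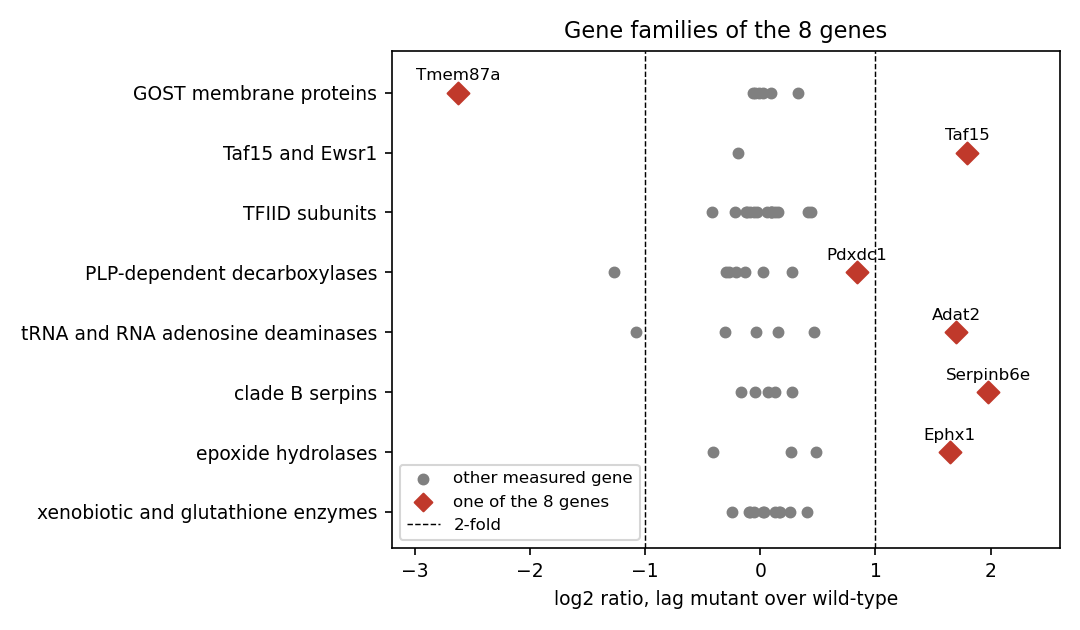
Ratios of lag mutant to wild-type signal, as log2, for the measured genes of the family lists. Diamonds are genes of the set of 8, grey points are the other genes of the list and dashed lines mark 2-fold. In the other genes only Ddc, among the decarboxylases, and Adarb2, among the deaminases, lie past 2-fold, both lower in the lag mutant.

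Pdxdc1 gave opposite readings. Probe set 1419327_at had 37.9 in the lag mutant, under background, and 930 in the wild-type, at least 18.9-fold lower. Its 3 other probe sets were all higher in the lag mutant. Probe set 1452705_at, the brightest, had 756 in the lag mutant and 422 in the wild-type, 1.79-fold higher. Probe set 1436372_a_at had 232 and 125, 1.85-fold higher, and 1428200_a_at 176 and 126, 1.39-fold higher, in the same order.

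A decrease by 1 probe set thus stood beside moderate increases by all the others, and those 3 had log2 ratios of 0.84, 0.89 and 0.48. The ratios of the Pdxdc1 probe sets spanned 5.13 on the log2 scale, a 35.1-fold distance. Of 6581 genes with at least 2 measured probe sets, 502 (7.63%) had probe sets at least 2-fold apart, and only Mbp had a wider span than Pdxdc1. A probe set at least 4-fold lower beside another at least 1.5-fold higher was found in 4 genes (0.0608%), with Pdxdc1 among them. Pdxdc1 was selected for a large ratio in at least 1 probe set, and the same low probe set gives it its place here. A gene with more probe sets also has more chances of a wide span. Nothing is therefore read from its place in these counts. RefSeq lists 7 transcripts for Pdxdc1. Which transcripts the 4 probe sets read, and whether bases under them differ between the strains of the line, was not tested.

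**Figure D3:**
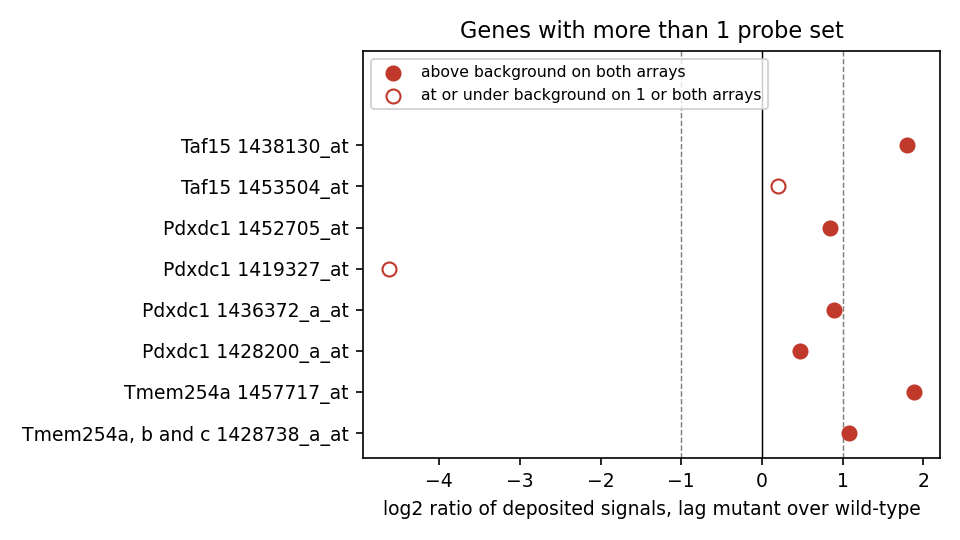
Log2 ratio of deposited signals, lag mutant over wild-type, for each probe set of Pdxdc1, Taf15 and Tmem254a, with the probe set shared by the 3 Tmem254 copies in the lowest row. Open circles are probe sets at or under background on 1 or both arrays. The Pdxdc1 probe set 1419327_at lies far to the left of the other 3, which lie between 0.48 and 0.89.

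Because of this split, the value of Pdxdc1 as a gene depends on how its probe sets are joined. The log2 ratio was 0.84 by the brightest probe set, -4.24 by the lowest, and -0.51 as the mean over all 4. Other decarboxylases that use pyridoxal phosphate were mostly close between the arrays. Of the 7 others measured, 1 was at least 2-fold lower and none higher, where 1.02% and 0.748% of all measured genes were. Their median log2 ratio was -0.21, and a single gene says nothing particular to the family. Ddc, which makes dopamine and serotonin, was that gene, with 343 in the lag mutant and 826 in the wild-type. Gad1, which makes the transmitter GABA, had 8069 and 8843 in the same order.

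**Figure D4:**
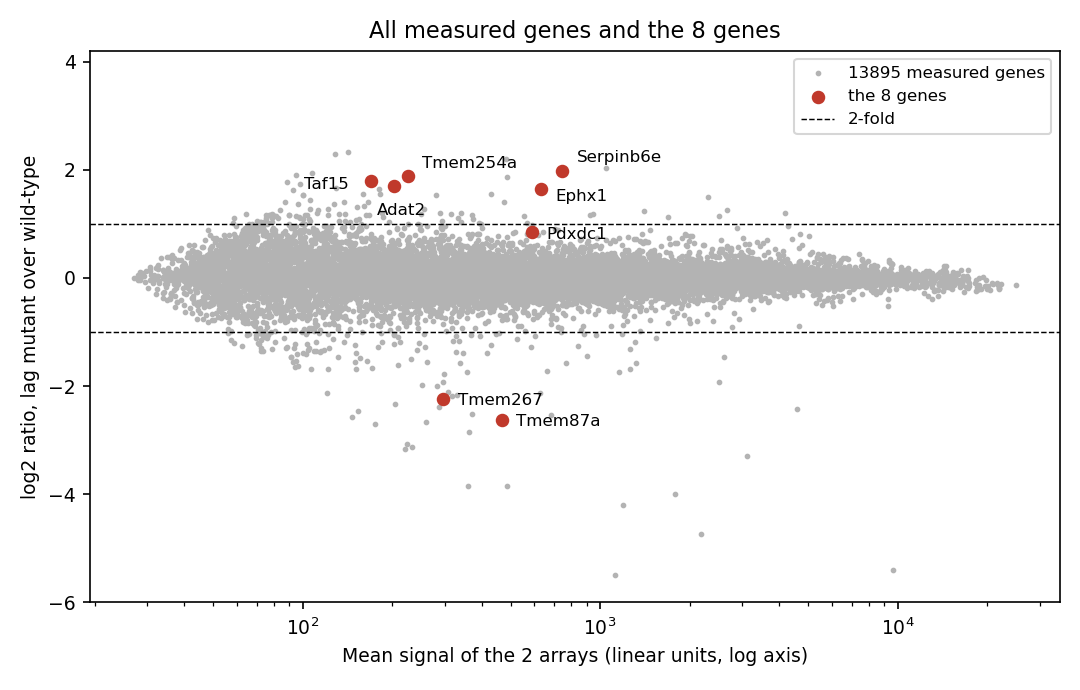
Log2 ratio of lag mutant over wild-type (vertical axis) against the mean signal of both arrays (horizontal log axis) for 13895 measured genes, in grey, with the 8 genes in red and 2-fold marked by dashed lines. Apart from Pdxdc1, which lies at 0.84 by its brightest probe set, the 8 genes lie outside the main cloud at signals between 169 and 744.

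The spread of ratios over all measured genes depended on signal. When measured genes were split by mean signal into 4 classes of equal size, the SD of the log2 ratio over genes was 0.46 in the dimmest, which holds Taf15, and 1.96% of its genes were lower and 1.93% higher by 2-fold or more. In the next class, with Tmem87a, Tmem267, Adat2 and Tmem254a, the SD was 0.39, and 1.38% were lower and 0.691% higher. In the third, with Serpinb6e, Ephx1 and Pdxdc1, the SD was 0.29, and 0.518% were lower and 0.202% higher. This spread is across genes of 1 pair of arrays and does not stand in for replicates. The genes named in these classes were selected for large ratios on the same arrays. They would therefore stand out from this spread by construction, and nothing is read from their place in it.

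Genes around the 8 loci were compared by their brightest probe sets. Of 138 measured genes within 1 Mb of any of them, 0 were changed at least 2-fold, where 1.77% of all measured genes were, and the median log2 ratio was -0.02. The 8 genes lie on 7 chromosomes, with Serpinb6e and Tmem267 both on chromosome 13. Tmem87a, on chromosome 2, had the most measured neighbours, 38, with log2 ratios between -0.54 and 0.62. Its nearest ones, Vps39 and Ganc, had 903 and 70.0 in the lag mutant and 949 and 78.5 in the wild-type.

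Pdxdc1, on chromosome 16, had 16 measured neighbours, and the nearest, Ntan1 and Mpv17l, were within 1.08-fold. Adat2 lies on chromosome 10 between Pex3 and Aig1, which were within 1.06-fold. The widest ratios among neighbours were those around Ephx1 on chromosome 1, the chromosome of Kif14, and around Taf15 on chromosome 11. Beside Ephx1, Tmem63a had 78.7 in the lag mutant and 144 in the wild-type, 1.83-fold lower, and Nvl 305 and 532, 1.74-fold lower, by its brightest probe set. The other Nvl probe set, above background as well, had 131 in the lag mutant and 135 in the wild-type. Differences around Ephx1 went both ways. Stum had 6343 in the lag mutant and 3704 in the wild-type, 1.71-fold higher. Cnih4 had 1062 and 654 in the same order, 1.62-fold higher, by its brightest probe set, while its other one was 1.09-fold lower. Near Taf15, the chemokine gene Ccl3 had 97.6 in the lag mutant and 37.6 in the wild-type, under background, at least 1.99-fold higher. Among the neighbours of Tmem267, 4833420G17Rik had 442 in the lag mutant and 752 in the wild-type, 1.7-fold lower, by its brightest probe set. Its other measured probe sets were 2.18-fold, 2.49-fold and 1.04-fold lower, so this neighbour passed 2-fold by some probe sets.

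**Figure D5:**
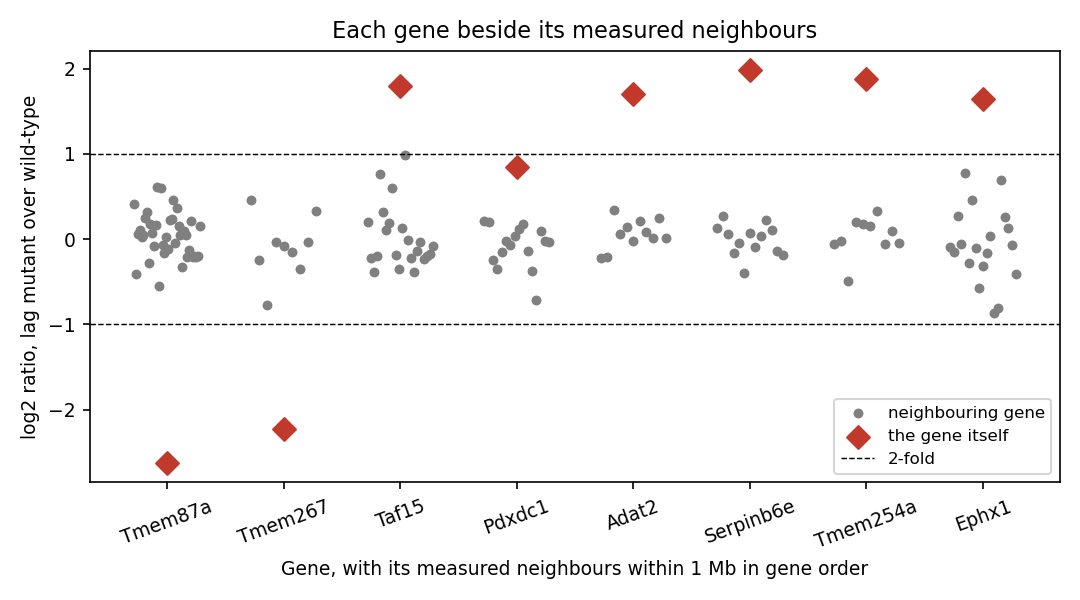
Log2 ratio of lag mutant over wild-type for each of the 8 genes (diamonds) and for its measured neighbours within 1 Mb (grey points, in gene order), with 2-fold marked by dashed lines. By their brightest probe sets all 138 neighbours lie inside the lines, with Ccl3 beside Taf15 the highest at 0.99. Other probe sets of the neighbours are not shown.

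Within 5 Mb, 488 genes were measured and 5 of them (1.02%) were changed at least 2-fold, where 1.77% of all measured genes were. The 5 genes were Dnajc17 and Rpusd2, both higher, and G630016G05Rik, lower, near Tmem87a, Rab32, higher, near Adat2, and Rad51c, lower, near Taf15. Rab32, a small GTPase of organelle traffic, had 149 in the lag mutant and 51.4 in the wild-type, 2.91-fold higher. Dnajc17, a chaperone of the DNAJ family, had 1314 and 576, 2.28-fold higher. By brightest probe sets, none of 57 measured genes within 5 Mb of Ephx1 was changed 2-fold, where 1.77% of all measured genes were. The count is near that share. By their probe sets of largest decrease, Enah and Sde2, both within 1 Mb of Ephx1, were 2.46-fold and 2.06-fold lower.

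The upstream sequences of the 8 genes ranged widely in CpG content. All 8 had a promoter entry in RefSeq on GRCm38.p6, of which the 250 bases before the first listed start site were used. Taf15 had 25 CpG pairs there and 66.8% G and C, Pdxdc1 had 18 pairs, Tmem267 17 and Tmem87a 13. Ephx1 had 3 pairs, Adat2 and Tmem254a 4 each, and Serpinb6e none, where the median of 32851 such windows was 6 and 7.87% had none. A second window, listed for Tmem267 and Tmem254a, had 39 and 21 pairs. The 120 bases next to the start site are shown for the genes with the lowest and highest ratio and for the gene with split probe sets, to let this contrast be seen. Capitals mark CpG pairs, and the stretches lie at chr2:120404117-120404236, chr13:33843409-33843528 and chr16:13903146-13903265, all on the minus strand.
Tmem87a: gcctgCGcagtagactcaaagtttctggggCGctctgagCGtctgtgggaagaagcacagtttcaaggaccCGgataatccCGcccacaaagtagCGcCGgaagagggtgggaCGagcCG
Serpinb6e: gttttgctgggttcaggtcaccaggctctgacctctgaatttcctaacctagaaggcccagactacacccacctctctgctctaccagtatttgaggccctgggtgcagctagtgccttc
Pdxdc1: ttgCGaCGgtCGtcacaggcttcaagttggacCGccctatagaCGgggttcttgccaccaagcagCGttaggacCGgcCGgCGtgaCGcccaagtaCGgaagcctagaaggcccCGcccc
In these windows, read on both strands, the letters CCGGAAG of the ETS core occurred in Tmem87a and in the second window of Tmem254a, and in 6.91% of all windows. The GC box letters GGGCGG occurred in Tmem87a, Tmem267, Taf15, Pdxdc1 and the second window of Tmem254a, and in 32.7% of all windows. The CCAAT box letters CCAAT occurred in Ephx1, Adat2 and Taf15, and in 33.8% of all windows, and the TATA box letters TATAAA in Ephx1 and Adat2, and in 12.4%. The letters CACGTG of the E-box occurred in none of the 8, and in 6.02% of all. The letters TGACNNNGC of the antioxidant response element core occurred in none of the 8, and in 10.2% of all. A match is a description of letters only.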

How the data were processed

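RNA of P14 cerebrum had been hybridised to an Affymetrix expression array for the mouse genome, 1 array per genotype. The authors computed the deposited values, which are linear intensities, by MAS5.0 at its defaults followed by global scaling; the submitters' notes also name MAS5. No source used here gives the target of the scaling, and no detection calls were used.

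Of 45101 probe sets, the platform annotation gave 34958 a single gene and 932 several genes, with 9211 unnamed, and only the first were used, apart from the probe set shared by the Tmem254 copies. Symbols were updated by gene identifier through RefSeq of GRCm38.p6, where 34754 matched, which also gave the order of genes and the promoters. The background level is the 95th percentile of 150 probe sets for olfactory, vomeronasal and taste receptors, hair keratin-associated proteins and beta defensins, 49.1 in the lag mutant and 48.5 in the wild-type; the higher served both arrays. Log2 ratios were computed from intensities raised to it.

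Genes named are the 8 genes, measured genes of their families, nearest measured neighbours, changed neighbours and Kif14; any other gene was named with its value known. The genes and lists were chosen with earlier results of these data known. Alternatives varied background level, probe set, normalization, fold and window. The steps were tested on simulated data, with recovery checked only in bright genes and with the same noise at all signals. Most of the 8 genes were dimmer in the wild-type than the genes checked, so the simulation does not cover them. The arrays, 2 in all, limit the precision. Python 3.11.15, numpy 2.4.6, pandas 2.3.3 and matplotlib 3.10.9 were used.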

Additional observations from a re-analysis of the deposited data

How the results depend on the processing

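No paired analysis was possible because the comparison holds a single pair of arrays. With 1 probe set for 6 of the 8 genes, most differences rest on a single reading. Wild-type signals near background, 75.7, 95.2 and 96.5, limit those of Taf15, Adat2 and Tmem254a. The lag mutant signals of Tmem267 and Tmem87a, 104 and 130, were also under the 99th percentile level of 157.

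When the 90th percentile set the background level, 1 of 143 neighbours within 1 Mb was changed 2-fold (Ccl3). At the 99th percentile 67 genes were lower and 31 higher, 3 of the 8 genes and 3 of their probe sets were higher, and 109 genes had probe sets 2-fold apart. Without a level, when all 18194 genes enter, 980 were lower and 1232 higher. Then 2837 genes had probe sets apart, 2 of them among the 8, and 26 of 189 neighbours were changed. With the probe set of largest decrease 300 of 13900 genes were lower and 76 higher, and 3 of 138 neighbours were changed. All 3 neighbours were lower, 4833420G17Rik near Tmem267 2.49-fold, and Enah and Sde2 near Ephx1 2.46-fold and 2.06-fold. The log2 ratio of Pdxdc1 was then -4.24. It was -0.51 with the mean over probe sets. With the largest increase 179 genes were higher. With _at and _a_at probe sets only, which drops Serpinb6e, 1 of 136 neighbours was changed (4833420G17Rik), and 1 of 137 with quantile normalization (Ccl3). At 1.5-fold 492 of 13895 genes were lower, 594 higher, 1717 had probe sets apart and 11 of 138 neighbours were changed. At 4-fold these were 29 lower and 4 higher genes and 26 with probe sets apart, and 0 of the 8 genes and 0 of their probe sets were higher. Within 5 Mb, 5 of 488 neighbours were changed. Nothing about the loci is read from these counts of neighbours. A lower level, a smaller fold or a wider window counts more genes by construction; other causes were not tested. Of 71 values of the 8 genes under these alternatives, 67 kept their direction and side of 2-fold, 2 of Pdxdc1 turned, and Taf15 and Adat2 at the 99th percentile fell short of it. Many of these values could not move. With 1 probe set for 6 of the genes, choosing or averaging probe sets returns the same value. A lower background level also leaves signals above it as they were. The count therefore does not measure how robust the differences are. In both scalings each of the 8 genes kept its direction by the brightest probe set.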

Other observations

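Pdxdc1 was not alone in giving opposed readings. The other 3 genes with a probe set at least 4-fold lower beside another at least 1.5-fold higher were Rps9, Xaf1 and Zfp945, named after their values were seen. Rps9, a ribosomal protein gene, had 263 in the lag mutant and 3923 in the wild-type by 1434624_x_at, 8007 and 8354 by 1433689_s_at, and 102 and 65.2 by 1426958_at. The first of these is of the class that can bind similar sequences of other genes. Whether 1433689_s_at and 1426958_at read Rps9 alone was not tested. Zfp945, a zinc finger gene, had 18.2, under background, in the lag mutant and 313 in the wild-type by 1437128_a_at. It had 396 and 204 by 1437127_at, and 67.1 and 88.3 by 1441792_at, in the same order. Xaf1, a gene of the interferon response, had 27.5 in the lag mutant and 214 in the wild-type by 1443621_at, and 129 and 18.7 by 1443698_at. The lower signal of each of these Xaf1 probe sets was under background. In each of these genes the array with the brighter signal therefore depended on the probe set.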
